A study of Homo sapiens with 6 samples.

Results

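The 10 genes described here encode the NF-kB transcription factors and the proteins that hold them back. They comprised the 5 NF-kB/Rel subunits NFKB1, NFKB2, REL, RELA and RELB, and 5 feedback inhibitors, NFKBIA, NFKBIB, NFKBIE, TNFAIP3 and BCL3. They were taken by name from the deposited table of 61731 genes and loci, and all 10 were found in it. U87 is an established human glioblastoma cell line. Total RNA was sequenced from 3 libraries of negative control cells (NC) and from 3 libraries labelled as CHRM knockdown (KD), and the paper describes a lentivirus against CHRM3, the M3 muscarinic acetylcholine receptor, for the latter. Whether the libraries within a group were grown as separate cultures, and which knockdown sequence they carried, is given neither by the labels nor by the paper's text, so the p-values below measure only the spread between these libraries.

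NF-kB proteins bind DNA as dimers. In resting cells the IkB proteins, encoded by NFKBIA, NFKBIB and NFKBIE, keep the dimers in the cytoplasm. Signals from receptors such as those of interleukin-1 and tumour necrosis factor activate the IkB kinase (IKK), which marks IkB for destruction and releases the dimers, the canonical route. In the non-canonical route the kinase encoded by MAP3K14 drives the processing of the NFKB2 precursor, whose product pairs with RELB. NF-kB then induces several of its own subunits and inhibitors, so that the transcripts of these genes serve as a readout of the pathway as well as its parts. In glioblastoma, NF-kB activity is associated with the mesenchymal state and with inflammatory cytokines.

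Expression was given as TPM, each gene's share of a library after allowance for transcript length, so that levels can be compared between genes. TPM keeps no read depth, so how deeply each library was sequenced is unknown. Each library had 22597 to 23311 genes with a TPM above 0. The targeted gene CHRM3 was 0.02, 0.09 and 0.13 TPM in NC replicates 1, 2 and 3 and 0.13, 0.01 and 0.02 TPM in KD replicates 1, 2 and 3. These levels are close to 0.01 TPM, the smallest step in the table, and did not separate the groups (p = 0.80 in a two-sided exact permutation test, whose smallest possible p with 3 against 3 is 0.10). The groups therefore rest on the labels. VIM, CD44, TNC and FN1, which mark mesenchymal glioma cells, were abundant (403 to 7451 TPM), whereas NES was 1.98 to 4.01 TPM, the glial marker GFAP was 0.87 to 1.46 TPM and S100B and OLIG2 averaged under 1 TPM. Of these markers, 5 also differed between the groups past the limma threshold used below, with log2 fold changes of -0.33 for CD44, -0.30 for TNC, -0.57 for FN1, 0.17 for VIM and 0.50 for NES, and their part in the results was not tested. All 10 leukocyte markers averaged under 1 TPM, with a summed level of 0.68 to 1.92 TPM in NC and 0.52 to 0.94 TPM in KD, and TYROBP and CD3E were listed at 0 in every library. The 4 endothelial markers summed to at most 0.25 TPM.

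Several of these genes have, near their start, letters that match the DNA element NF-kB proteins bind. The kB consensus motif, of 10 bases, was searched on both strands in promoter windows from RefSeq (GRCh38.p14), each holding 250 bases before and 50 after an annotated transcription start, and overlapping matches were counted as 1 site. Windows were at hand for 8 of the 10 genes, 13 windows in all. RELB and NFKBIE were not searched. Of these 8 genes, 7 had a match in at least 1 window, and 8 of the 13 windows (61.5%) held one, against 5.91% of all 35116 windows and 6.73% of the windows of genes tested here. RELA, with 2 windows, had no match. The stretches below show matches in capitals within the sense strand of each gene. They are given so that the spacing and the letters of the element can be compared between the genes. For NFKB2, 2 of its 4 matches are shown. Of the stretches shown, all except that of NFKBIA overlap an untranslated region of some annotated transcript in GENCODE 29 and are kept to 30 bases.
NFKBIA, chr14:35404796-35404855, minus strand, bases -106 to -47 from the start: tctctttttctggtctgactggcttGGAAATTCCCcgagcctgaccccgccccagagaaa
TNFAIP3, chr6:137867188-137867217, plus strand, bases -71 to -42: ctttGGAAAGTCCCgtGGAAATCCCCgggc
NFKB1, chr4:102501300-102501329, plus strand, bases -59 to -30: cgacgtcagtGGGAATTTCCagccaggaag
NFKB2, chr10:102394461-102394490, plus strand, bases -117 to -88: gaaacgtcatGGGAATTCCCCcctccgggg
NFKB2, a later start, chr10:102395674-102395703, plus strand, bases -31 to -2: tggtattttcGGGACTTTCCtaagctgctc
REL, chr2:60881517-60881546, plus strand, bases -57 to -28: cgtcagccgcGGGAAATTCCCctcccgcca
NFKBIB, chr19:38899931-38899960, plus strand, bases -38 to -9: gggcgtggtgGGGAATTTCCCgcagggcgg
BCL3, chr19:44748700-44748729, plus strand, bases -8 to 22: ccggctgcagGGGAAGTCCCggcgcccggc

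TNFAIP3 had 2 matches within 1 window, at -67 and -55 from the start, and NFKB2 had 4 over 2 of its 3 windows, from -176 to -12. The match of BCL3 lay after the start, from base 3 to base 12. A match describes letters only, and binding was not measured in these libraries.

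**Figure D1:**
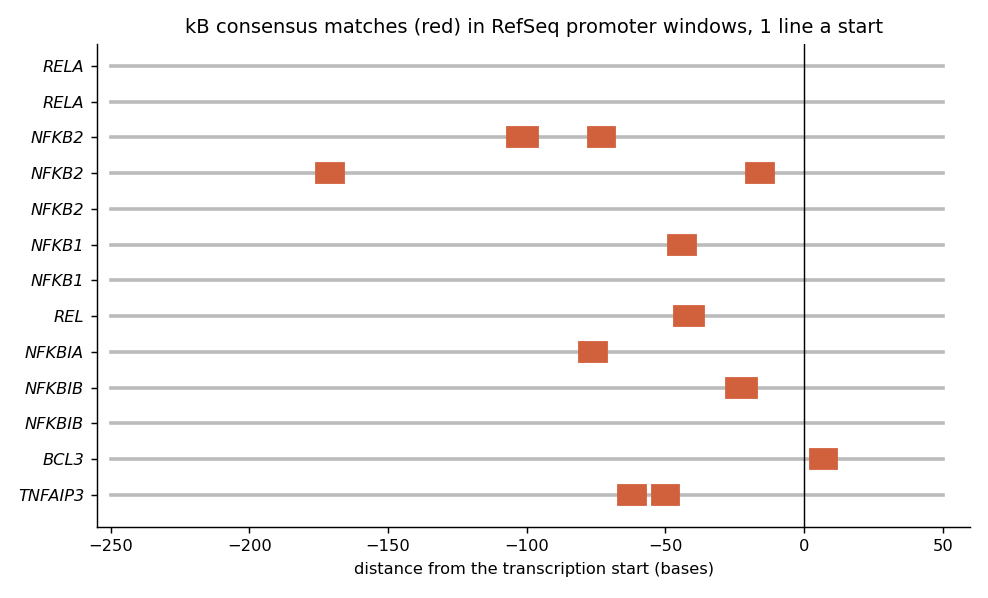
Positions of matches to the kB consensus motif (red boxes) in 13 RefSeq promoter windows of 8 genes, 1 grey line per annotated start, with the distance from the start in bases on the horizontal axis. Matches are seen in 8 windows, 10 of the 11 sites upstream of the start, and none is seen in either window of RELA.

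Among the 10 genes, RELA was the most abundant in both groups and REL the least. In NC the order was RELA, NFKBIA, NFKB2, NFKBIB, BCL3, NFKB1, RELB, TNFAIP3, NFKBIE and REL, and the values of neighbours overlapped only for NFKB2 and NFKBIB. In KD, BCL3 and NFKBIB stood above NFKB2, and only BCL3 and NFKBIB overlapped as neighbours. REL averaged 0.652 TPM over the 6 libraries and fell below the limit for testing, a mean of at least 1 TPM, so 9 of the 10 genes were tested. The limma test was run on log2(TPM + 1) over the 13722 genes above that limit, and a gene passed at a Benjamini-Hochberg adjusted p under 0.05. Fold changes are on that scale, and the pseudocount makes them smaller than the ratio of TPM for low genes.

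Of the 9 tested genes, NFKB2, RELA, NFKBIA and TNFAIP3 were lower in KD past the threshold and BCL3 was higher. The 4 lower genes stand beside a background in which 3295 of the 13722 genes (24.0%) were lower past the same threshold, and the 1 higher gene beside 1660 (12.1%). In such bulk libraries, fewer cells of a type and less RNA per cell cannot be told apart. After median-of-ratios scaling that background was 2249 lower and 2306 higher, and 3 of the 9 genes were lower and 1 higher. The 3 values of each group did not overlap for 6 of the 9 genes (5 lower, 1 higher), against 50.2% of all genes tested. The median log2 fold change of the 9 genes was -0.19 and that of all genes tested -0.06. The change of NFKB2, the largest, was -0.49 on this scale and -0.50 and -0.51 with pseudocounts of 0.5 and 0.1.

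**Figure D2:**
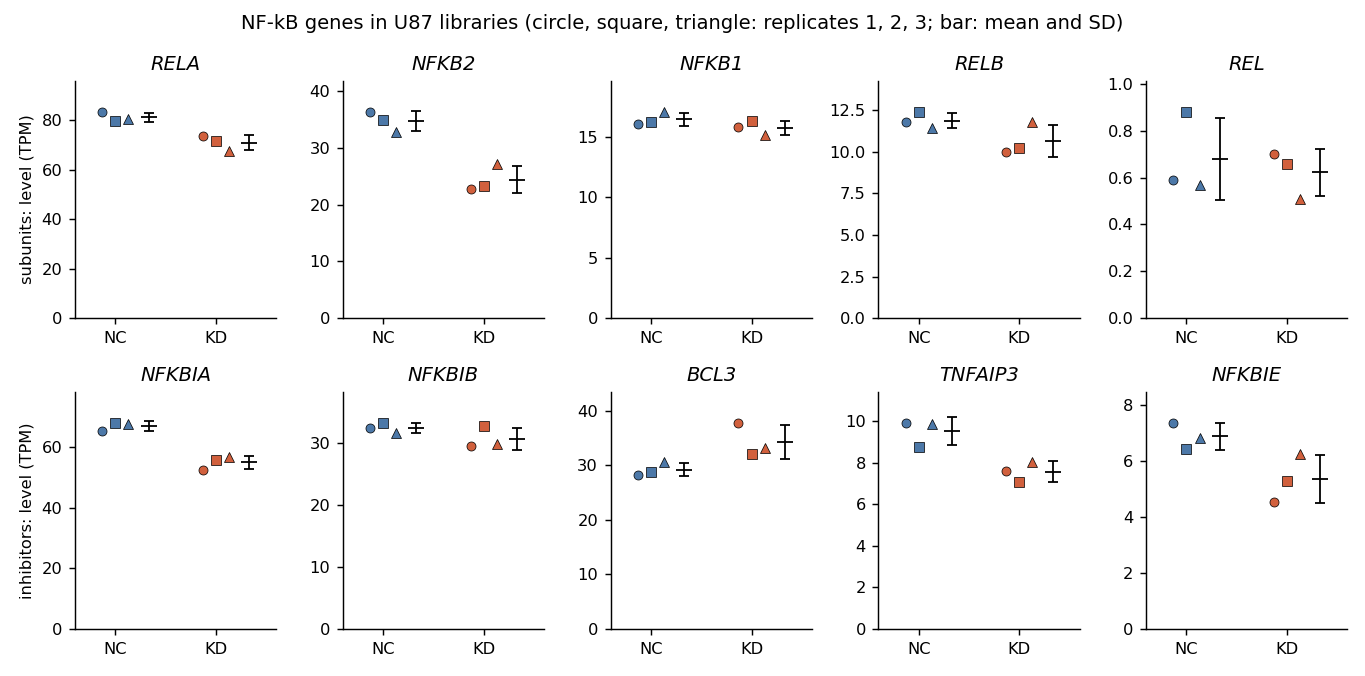
Level in TPM (vertical axis, from 0) of each of the 10 genes in 3 NC (blue) and 3 KD (red) libraries, with symbols for replicates 1, 2 and 3 and bars for the mean and SD. NFKB2, RELA, NFKBIA, TNFAIP3 and NFKBIE lie lower in every KD library than in any NC library, BCL3 lies higher, and the other 4 genes overlap.

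NFKB2 (ENSG00000077150), on chromosome 10 (GRCh38, plus strand, 102394110 to 102402529), encodes the precursor of the p52 subunit of the non-canonical route. Its level was 36.35, 34.99 and 32.8 TPM in NC replicates 1, 2 and 3 and 22.77, 23.39 and 27.12 TPM in KD replicates 1, 2 and 3. All KD libraries lay below all controls, with KD replicate 3 the nearest to them. The mean went from 34.7 ± 1.79 to 24.4 ± 2.35 TPM (SD, n = 3 each), or 0.704 of the control mean. This was the largest change among the 9 genes, -0.49 on the log2 scale (SE 0.0742, limma adjusted p = 0.00307), and it lay between -0.57 and -0.45 when each library was left out in turn.

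RELA (ENSG00000173039), on the minus strand of chromosome 11 from 65653596 to 65663094, encodes p65, the transactivating subunit of the canonical dimer. It was 83.32, 79.73 and 80.48 TPM in NC and 73.54, 71.62 and 67.75 TPM in KD. The groups did not overlap, and KD replicate 3 was the lowest library. The mean was 81.2 ± 1.89 TPM in NC and 71.0 ± 2.95 TPM in KD (SD, n = 3 each). On the log2 scale this was -0.19 (SE 0.038, limma adjusted p = 0.00934).

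The partners of these subunits showed smaller differences that did not pass. NFKB1 (ENSG00000109320), on chromosome 4 from 102501329 to 102617302, encodes the precursor of p50, the usual partner of p65. It was 16.07, 16.19 and 17.06 TPM in NC and 15.78, 16.33 and 15.18 TPM in KD, with overlapping groups. Its log2 fold change was -0.06 (95% interval -0.17 to 0.06, limma adjusted p = 0.389) and turned to 0.01 after median-of-ratios scaling. RELB (ENSG00000104856), on chromosome 19 from 45001430 to 45038198, the partner of p52, was 11.81, 12.4 and 11.45 TPM in NC and 10.01, 10.22 and 11.77 TPM in KD. Only KD replicate 3 lay within the range of the controls. The log2 fold change of RELB was -0.15 (95% interval -0.32 to 0.03, limma adjusted p = 0.162), and without KD replicate 3 it was -0.21 (limma adjusted p = 0.0478). REL (ENSG00000162924), on chromosome 2 from 60881521 to 60931610, encodes c-Rel, a subunit known best from lymphocytes. It was 0.59, 0.88 and 0.57 TPM in NC and 0.7, 0.66 and 0.51 TPM in KD, and a limma fit with no limit on low values gave a log2 fold change of -0.05 (adjusted p = 0.836). A non-coding gene on the same strand, AC010733.2, overlaps REL by 5702 bases and averaged 1.55 TPM, and the division of reads between the pair was not tested.

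NFKBIA (ENSG00000100906), on the minus strand of chromosome 14 from 35401511 to 35404749, encodes IkB-alpha, the rapidly resynthesised inhibitor of the canonical dimer. It was 65.26, 68.11 and 67.68 TPM in NC and 52.44, 55.74 and 56.8 TPM in KD, with no overlap. The mean was 67.0 ± 1.54 TPM in NC and 55.0 ± 2.27 TPM in KD (SD, n = 3 each), a log2 difference of -0.28 (SE 0.0387, limma adjusted p = 0.00213). The call remained in each fit that left out a library, with values from -0.30 to -0.25. TNFAIP3 (ENSG00000118503), on chromosome 6 from 137867188 to 137883312, encodes a ubiquitin-editing enzyme that shuts off signalling upstream of IKK. It was 9.93, 8.75 and 9.87 TPM in NC and 7.62, 7.05 and 8.04 TPM in KD. The groups did not overlap, although the gap between NC replicate 2 and KD replicate 3 was small. The mean was 9.52 ± 0.665 TPM in NC and 7.57 ± 0.497 TPM in KD (SD, n = 3 each), a log2 difference of -0.29 (limma adjusted p = 0.0223). This call was lost after median-of-ratios scaling (limma adjusted p = 0.0544) and when any of NC replicates 1 and 3 or KD replicates 1 and 2 was left out (log2 fold changes -0.30 to -0.25).

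The remaining IkB genes did not pass. NFKBIE (ENSG00000146232), on chromosome 6 from 44258166 to 44265788, encodes IkB-epsilon, an inhibitor induced with a delay. It was 7.37, 6.44 and 6.82 TPM in NC and 4.55, 5.28 and 6.24 TPM in KD, so the groups did not overlap, but the KD libraries were spread widely. Its log2 fold change was -0.32 (95% interval -0.58 to -0.05, limma adjusted p = 0.0657), and without KD replicate 3 it was -0.41 (limma adjusted p = 0.0301). NFKBIB (ENSG00000104825), on chromosome 19 from 38899700 to 38908893, encodes IkB-beta, whose transcript is known to respond little to NF-kB. It was 32.43, 33.25 and 31.51 TPM in NC and 29.45, 32.64 and 29.85 TPM in KD, with overlap through KD replicate 2. The log2 fold change of NFKBIB was -0.08 (95% interval -0.20 to 0.04, limma adjusted p = 0.259). It overlaps SIRT2, on the other strand, by 163 bases, and the strand used in counting is not given in the sources used here.

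BCL3 (ENSG00000069399), on chromosome 19 from 44747705 to 44760044, encodes a nuclear IkB-like protein that binds p50 and p52 dimers on DNA and can repress or activate there. It was 28.22, 28.74 and 30.57 TPM in NC and 37.79, 31.96 and 33.09 TPM in KD. All KD libraries were above all controls, and KD replicate 1 was the highest. The mean rose from 29.2 ± 1.23 TPM to 34.3 ± 3.09 TPM (SD, n = 3 each), a log2 difference of 0.22 (SE 0.0687, limma adjusted p = 0.0457). The call was narrow. When single libraries were left out, it was lost in 5 of 6 fits (all except that without KD replicate 2), and the value ranged from 0.15 to 0.27. Without KD replicate 1 the value was 0.15 (limma adjusted p = 0.0699).

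**Figure D3:**
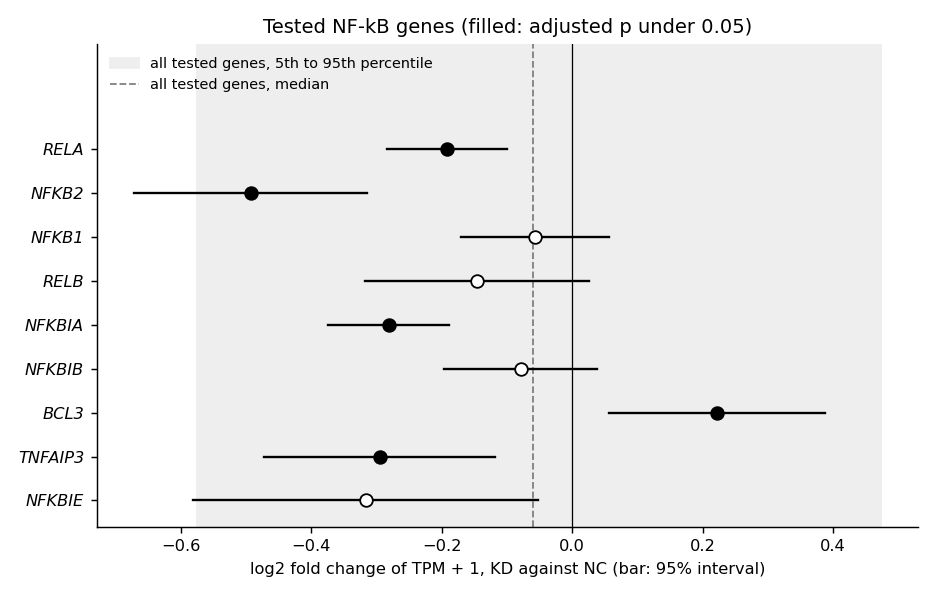
Log2 fold change of TPM + 1 in KD against NC for the 9 tested genes, with 95% intervals from limma and filled circles for an adjusted p under 0.05. The grey band holds the 5th to 95th percentile of all 13722 genes tested (-0.57 to 0.47), all 9 estimates lie inside it, and the dashed line is the median of all genes at -0.06.

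KD replicate 3 was the nearest to the controls for several of the genes. Among the KD libraries it was the highest for NFKB2, RELB, NFKBIA, TNFAIP3 and NFKBIE, and the lowest for RELA, NFKB1 and REL. Over all genes tested, Pearson's correlation of log2(TPM + 1) between KD replicates 1 and 2 was 0.979. For KD replicate 3 it was 0.977 and 0.978 with the other KD libraries. With each control, KD replicate 3 had the lowest correlation of the KD libraries. Its values were 0.964 to 0.968, against 0.966 to 0.969 for KD replicates 1 and 2. Without KD replicate 3, 6 of the 9 genes were lower past the threshold in place of 4, and BCL3 did not pass (limma adjusted p = 0.081). Among all 13722 genes tested, that fit left 2674 lower in place of 3295.

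Ratios between genes within a library do not depend on how that library was scaled, and they were compared as a description without a test. The 5 subunits summed to 142.4 to 148.1 TPM in NC and to 122.2 to 122.8 TPM in KD. The 3 IkB genes NFKBIA, NFKBIB and NFKBIE summed to 105.1 to 107.8 TPM in NC and to 86.4 to 93.7 TPM in KD. Both sums were lower in every KD library than in any control. Their ratio was 0.709, 0.748 and 0.745 in NC and 0.704, 0.766 and 0.759 in KD, with means of 0.734 ± 0.0214 and 0.743 ± 0.0342 (SD, n = 3 each), so it overlapped between the groups. The ratio of NFKBIA to RELA, the inhibitor and the subunit of the canonical pair, also overlapped, at 0.783, 0.854 and 0.841 in NC and 0.713, 0.778 and 0.838 in KD.

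The composition of the subunit pool differed more. NFKB2 made up 24.5%, 24.3% and 23.0% of the summed subunit TPM in NC and 18.5%, 19.1% and 22.2% in KD. The share of NFKB1 was 10.8% to 12.0% in NC and 12.4% to 13.4% in KD, and neither share overlapped between the groups. For the TPM of single genes, the groups did not overlap in 50.2% of all genes tested. The TPM of NFKB1 itself overlapped and was not higher in KD (mean 16.4 TPM in NC and 15.8 TPM in KD). Its larger share thus came with a lower sum of the subunits. The share of RELA was 55.3% to 56.5% in NC and 55.4% to 59.9% in KD, which overlapped. The 2 precursor genes changed unequally, and the ratio of NFKB2 to NFKB1 went from 2.12 ± 0.174 to 1.55 ± 0.202 (SD, n = 3 each). The ratio of NFKB2 to RELB, the non-canonical partners, was 3.08, 2.82 and 2.86 in NC and 2.27, 2.29 and 2.30 in KD. This ratio varied little between the KD libraries, since KD replicate 3 was the highest of them for both genes. The ratio of BCL3 to NFKB2 was 0.776 to 0.932 in NC and 1.22 to 1.66 in KD, so BCL3 was below NFKB2 in every control and above it in every KD library. Within the IkB genes, NFKBIA made up 63.0% ± 0.871 of the summed TPM in NC and 60.4% ± 0.84 in KD (SD, n = 3 each), without overlap.

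**Figure D4:**
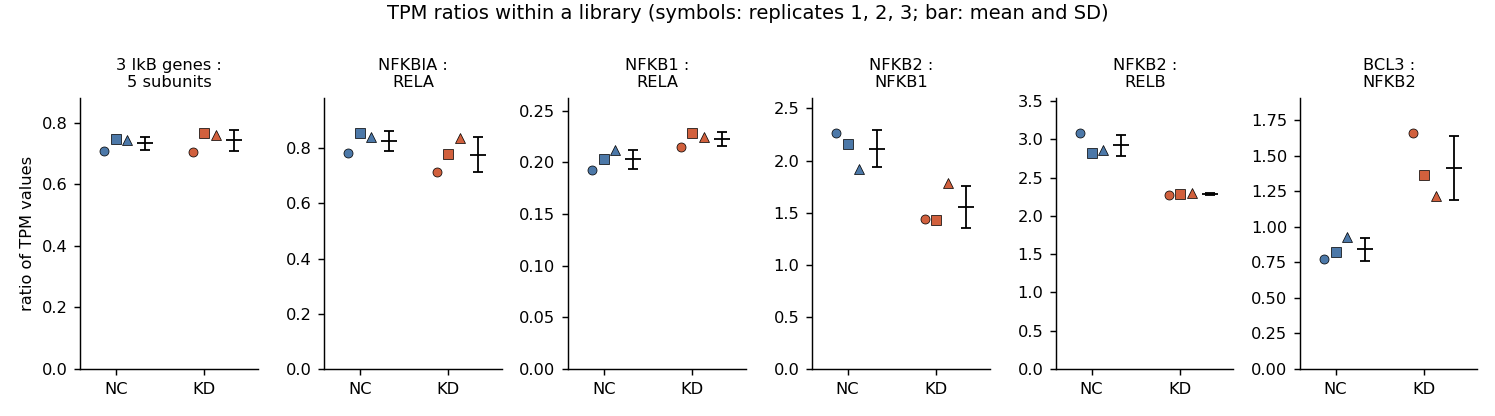
Ratios of TPM values within each library (vertical axes, from 0) for 6 pairs, with 3 NC (blue) and 3 KD (red) libraries and bars for the mean and SD. The ratio of the 3 IkB genes to the 5 subunits and that of NFKBIA to RELA overlap between the groups, the 2 ratios with NFKB2 on top are lower in KD, and those of NFKB1 to RELA and BCL3 to NFKB2 are higher.

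The wider pathway was described by 5 lists of 84 genes, of which 71 were tested. These lists were chosen with earlier results of these data known. An excess over all genes in any list is therefore a description and not independent evidence. Of the 71 genes, 33 were lower past the threshold and 6 higher, with a median log2 fold change of -0.15, against 24.0% lower and 12.1% higher among all genes tested. After median-of-ratios scaling, 27 of the 71 were lower and 7 higher. Of all 13722 genes, 2249 were then lower and 2306 higher. With quantile normalization 2229 of all genes were lower and 2233 higher. Among 7 tested receptors, 4 were lower (3 with either scaling) and 2 higher, beside the same 24.0% and 12.1% without scaling. CD40 was 8.81, 8.22 and 9.15 TPM in NC and 5.34, 4.6 and 4.74 TPM in KD. Its fall on the log2(TPM + 1) scale was the largest among the receptors above the limit of 1 TPM (-0.72, limma adjusted p = 0.000677). TLR2, a Toll-like receptor below that limit that was picked out after its values were seen, was 0.61, 0.64 and 0.73 TPM in NC and 0.15, 0.02 and 0.18 TPM in KD (limma adjusted p = 0.00677 with no limit). LTBR, the lymphotoxin receptor, fell from 32.3 ± 1.37 to 25.7 ± 1.11 TPM (SD, n = 3 each). TNFRSF1B, a receptor of tumour necrosis factor, fell from 9.99 ± 0.817 to 6.79 ± 0.699 TPM (SD, n = 3 each). TNFRSF12A, the receptor of TWEAK and the most abundant of the list, rose from 459.1 ± 2.94 to 568.3 ± 47.2 TPM (SD, n = 3 each). The calls of TNFRSF1A (log2 fold change -0.15) and of IL1R1, the signalling receptor of interleukin-1 (0.15), were each lost in 5 of the 6 fits that left out a library. That of TNFRSF1A was also lost with median-of-ratios scaling (limma adjusted p = 0.227) and with quantile normalization (limma adjusted p = 0.317).

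Of the 11 kinases and IKK parts, 4 were lower, none was higher and 7 did not pass in the limma fit, beside 24.0% lower and 12.1% higher among all genes. The 4 became 3 with median-of-ratios scaling and 2 with quantile normalization, a share near the background. Of all 13722 genes, 2249 and 2229 were lower with these scalings. The parts of IKK itself, CHUK, IKBKB and IKBKG, did not pass, with log2 fold changes of -0.07, -0.02 and -0.14, and nor did MAP3K14 (-0.05). IKBKG has a near-identical pseudogene copy, so its value is uncertain. TAB2 and MAP3K7, which form the kinase complex upstream of IKK, fell by 0.20 and 0.21 on the log2 scale, and TBK1, an IKK-related kinase, fell by 0.19. The call of MAP3K7 was lost with quantile normalization (-0.13, limma adjusted p = 0.0634). MAP3K8, a kinase held inactive by the NFKB1 precursor, went from 13.9 ± 0.749 to 10.1 ± 1.82 TPM (SD, n = 3 each). Its call (log2 fold change -0.44, limma adjusted p = 0.0323) was lost with either scaling and in 4 of the 6 fits that left out a library. Of the 15 tested adaptors, 3 were lower and 1 higher, a smaller share in each direction than the 24.0% and 12.1% of all genes. With either scaling 2 of the 15 were lower and 1 higher, where 2249 or 2229 of all 13722 genes were lower and 2306 or 2233 higher. MYD88, the adaptor of the interleukin-1 and Toll-like receptors, fell from 30.2 ± 0.913 to 25.1 ± 1.04 TPM, and TRAF2 from 18.5 ± 0.495 to 15.9 ± 0.2 TPM (SD, n = 3 each). RIPK1 was also lower (log2 fold change -0.21), a call that was lost with either scaling and in all 6 fits that left out a library. IRAK1, a kinase bound to MYD88, rose from 292.5 ± 4.46 to 314.1 ± 3.36 TPM (SD, n = 3 each), and SHARPIN, of the linear ubiquitin ligase, was 42.8 ± 1.49 and 43.2 ± 4.2 TPM, within the spread of the libraries.

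Of 15 tested genes listed here as further brakes of the pathway, 8 were lower and 1 higher. Their median log2 fold change was -0.13, against -0.28 for the 5 inhibitors above. The grouping does not mean that each product only restrains NF-kB. Among all genes 24.0% were lower and 12.1% higher. With either scaling 6 of the 15 were lower and 2 higher. Median-of-ratios scaling left 2249 of all 13722 genes lower and 2306 higher, and quantile normalization 2229 and 2233. The 4 falls named here were the largest of the 15 and were picked for their size. ZC3H12A, an RNase that degrades inflammatory transcripts, was 56.44, 52.94 and 56.2 TPM in NC and 28.97, 28.03 and 27.77 TPM in KD, a log2 difference of -0.94 (SE 0.038, limma adjusted p = 1.85e-05). TNIP1, which works together with the TNFAIP3 protein, was 156.3, 154.5 and 152.5 TPM in NC and 88.9, 88.6 and 88.7 TPM in KD, a log2 difference of -0.79 (SE 0.021, limma adjusted p = 3.8e-06). The atypical IkB genes NFKBIZ and NFKBID, nuclear like BCL3, fell as well. NFKBIZ went from 22.1 ± 0.871 to 14.0 ± 0.904 TPM and NFKBID from 5.18 ± 0.627 to 2.56 ± 0.332 TPM (SD, n = 3 each), by 0.62 and 0.79 on the log2 scale. BCL3 thus moved in the other direction from NFKBIZ and NFKBID, and PDLIM2, which promotes the breakdown of nuclear p65, also rose, from 73.6 ± 2.36 to 110.9 ± 7.57 TPM (SD, n = 3 each, log2 fold change 0.58). The call of each of these 5 genes held in every fit that left out a library.

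The 23 tested target genes had the widest range, with 14 lower, 2 higher and a median log2 fold change of -0.33, beside 24.0% lower and 12.1% higher among all genes. With either scaling 13 were lower and 2 higher, where 2249 or 2229 of all 13722 genes were lower and 2306 or 2233 higher. CSF2 and LIF, secreted cytokines, fell from 11.7 ± 1.01 to 1.23 ± 0.29 TPM and from 37.8 ± 1.34 to 9.02 ± 0.928 TPM (SD, n = 3 each), by 2.51 and 1.96 on the log2 scale. IL1B and CXCL8 fell by 3.13 and 2.06. IER3, an early response gene, went from 212.3 ± 5.81 to 174.4 ± 4.9 TPM (SD, n = 3 each), a log2 fold change of -0.28. In the other direction, the chemokine gene CCL2 rose from 8.51 ± 1.22 to 14.4 ± 1.08 TPM and PLAU, encoding urokinase, from 286.3 ± 5.05 to 355.1 ± 5.56 TPM (SD, n = 3 each). Of the 25 target genes with a RefSeq promoter window, 10 had a kB match. The count was 4 of 15 further brakes, 2 of 10 kinases, 2 of 14 adaptors and 0 of 9 receptors. A match was found for 8.91% of the 9880 tested genes with a window and 7.09% of all 27305 genes with one. IL1B, CSF2, LIF and CXCL8 were not among the 10 target genes with a match. This does not show that they lack a kB site. Not every target gene had a window, and sites outside the windows or with other letters were not counted. Of the 10, CD83, CFLAR, CXCL1, CXCL2 and IL6 were lower past the threshold, and CXCL3 and IRF1 did not pass. CCL20, LTB and VCAM1 were below the limit for testing. A link between matches and changes was not tested.

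**Figure D5:**
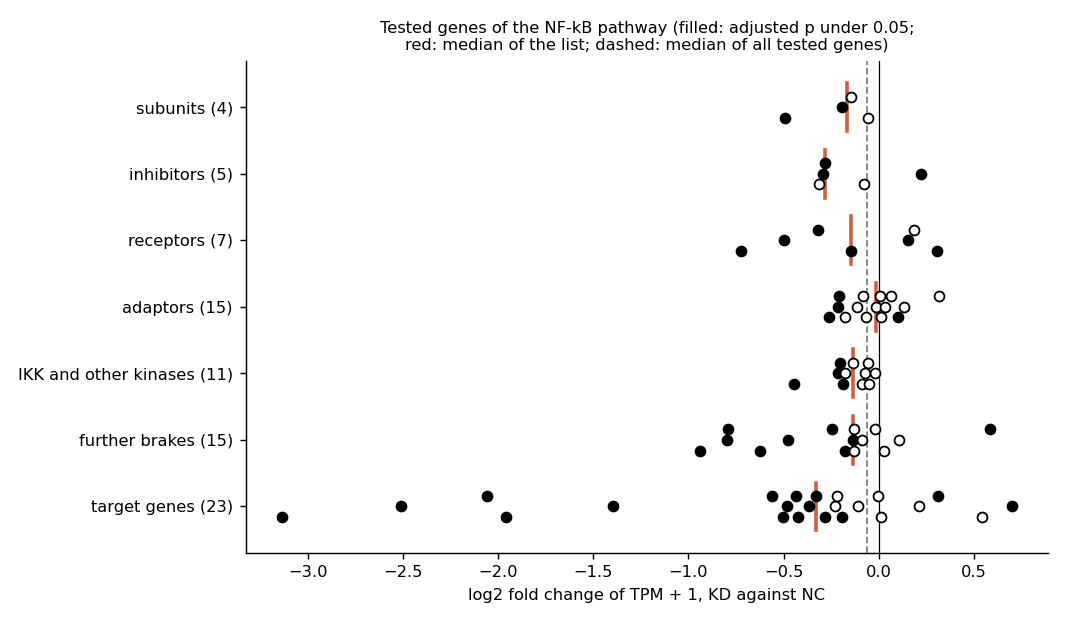
Log2 fold change of TPM + 1 in KD against NC for the tested genes of the NF-kB pathway, by role, with filled circles for an adjusted p under 0.05, red bars for the median of each list and a dashed line for the median of all genes tested (-0.06). The 23 target genes spread from -3.13 to 0.70, while the 9 subunits and inhibitors lie between -0.49 and 0.22.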

How the data were processed

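RNA from 3 NC and 3 KD libraries of U87 cells was sequenced in read pairs. The labels name an RNeasy and a SMARTer kit, the paper TRIzol and TruSeq. The table the authors deposited gives TPM for every gene in every library, rounded to 2 decimals, with 190 loci under MSTRG names. The submitters' processing notes name fastp, RSEM and GRCh38.p13. The annotation release, filters and strand are not given in the sources used here. TPM keeps no read depth, so no counting error is given. No table column was left without a sample.

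Symbols were found for 61369 identifiers in the gene name table, and SOD2 was matched through GENCODE 29, the source of gene coordinates. The test was limma 3.58.1 (R 4.3.3; lmFit, eBayes with a mean-variance trend, group as the only term) on log2(TPM + 1), among 13722 genes whose mean reached 1 TPM, with Benjamini-Hochberg adjustment. The procedure was also run on simulated data with independent normal noise and fewer changed genes than passed here. That run is not evidence for the calls in these data. The genes described and the pathway lists were chosen with earlier results of these data known. In each list the named genes were up to 4 with the largest change past the threshold in each direction and the 2 most abundant. CHUK, IKBKB, MAP3K14 and TLR2 were named after their values were seen, and the target genes with a kB match were named for that match. Alternatives varied the pseudocount, the limit on low values, the scaling, the replicate block, the trend, both thresholds and the libraries included.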

Additional observations from a re-analysis of the deposited data

How the results depend on the processing

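With the settings used, 4 of the 9 tested subunits and inhibitors were lower and 1 was higher. The count of lower genes was 3 or 4 under each alternative that kept all 6 libraries, except that it was 0 when a log2 change of 0.5 or more in size was also required (0 also before adjustment of the limma p), and it was 3 to 6 when each library was left out. Of all genes tested, 2504 to 2741 were lower when each library was left out. BCL3, the higher gene, stayed past the threshold with a pseudocount of 0.5 or 0.1, a limit of 5 TPM and both scalings. The count of higher genes was 0 with no limit on low values, a limit of 0.1 TPM, no trend, the replicate block, an adjusted p under 0.01 and the required change of 0.5, and 0 to 1 when each library was left out. The limma p of BCL3 before adjustment was 0.0187 with no limit, 0.0161 with a limit of 0.1 TPM, 0.0265 with no trend and 0.0314 with the block, so 1 gene was higher at an unadjusted p under 0.05 in each of these. That p was 0.0563 and 0.0528 without NC replicates 1 and 2, where 0 genes were higher before adjustment. Its adjusted p lay between 0.0202 and 0.132 over all fits. NFKB1, which did not pass in any fit, changed sign to 0.0088 with median-of-ratios scaling and 0.0168 with quantile normalization, which move the median of all genes from -0.06 to 0.00237 and 0.00212. SHARPIN lay between -0.0669 and 0.0586 when each library was left out. The counts of all genes were 1881 lower and 958 higher at an adjusted p under 0.01, and 686 lower and 415 higher with the required change of 0.5, where 12 genes of the pathway lists were lower and 2 higher. The difference in the ratio of IkB genes to subunits was -0.00295 to 0.029 when each library was left out, so its sign depends on single libraries.

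The same replicate numbers in both groups gave no clear sign of a pairing, although correlations so close to 0 cannot exclude one. The correlation of their deviations from the group means was -0.0198, 0.0341 and 0.0334 for numbers 1, 2 and 3. NC replicate 1 correlated best with KD replicate 3 (0.0336), while NC replicates 2 and 3 correlated best with their own numbers. With the replicate block, 4 of the 9 genes were lower and 0 higher, and 2638 of all genes were lower and 1369 higher.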
